A study of Saccharomyces cerevisiae with 4 samples.

Results

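The genes of the ribosomal stalk P proteins, RPP0, RPP1A, RPP1B, RPP2A and RPP2B, are described here by the ratio of their transcripts in RNA bound to Mex67 to those in total RNA. Mex67 is the main receptor by which budding yeast exports mRNA from the nucleus. These 5 genes were taken by name from the platform's probe annotation, out of 5539 genes with a probe. RNA of Saccharomyces cerevisiae recovered with zzMex67, a tagged Mex67, was hybridised with total RNA on 4 two-colour arrays, which form 1 group. Channel 2 held the precipitated RNA on the first pair of arrays (1 and 2), and channel 1 held it on the other pair (3 and 4). Arrays 1 and 3 share a numeric code in their titles and arrays 2 and 4 another, each code with both channel assignments. What the codes stand for is not stated, so arrays of a code may not be independent. A control precipitation without the tag was not analysed here, and the labels give neither strain nor growth conditions and do not say if each array had a culture of its own, so spreads between arrays may be technical. The genes were chosen with their ratios on these same arrays known, so their values are given as a description, with no test.

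The stalk is the flexible arm of the large ribosomal subunit that recruits the GTPases of translation and helps to switch on their activity. Its anchor, P0, binds ribosomal RNA and carries dimers of P1 and P2, small acidic proteins that share with P0 a conserved acidic tail at the C terminus. Budding yeast has an A and a B form of both P1 and P2, and the preferred dimers join P1A with P2B and P1B with P2A. P0 is essential for growth, whereas yeast without P1 and P2 survives. RPP0 (locus YLR340W) spans 939 bases in the RefSeq gene table of assembly R64, RPP1A (YDL081C) 321, RPP2A (YOL039W) 321 and RPP2B (YDR382W) 333. RPP1B (YDL130W), which has an intron, spans 622 bases.

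The deposited values were log10 ratios, converted here to log2 and centred on each array's median over the features with a ratio on at least 3 arrays. A feature was a gene, by the mean of its probes, or a probe that had no gene name. There were 596 such features, 498 of them named genes. They are read as precipitated over total RNA, which the wording of the labels makes likely but does not state. If they are total over precipitated RNA, every direction below turns. Most spots had no ratio: of 12800 probes, 845 to 2467 had one on an array. Arrays 2, 3 and 4 ranked the features alike (Pearson's r of 0.78 to 0.89 across features, which are not independent replicates), and array 1 did not (r of 0.06 to 0.25 with the others). Because arrays 2, 3 and 4 correlated positively across opposite channel assignments, the 4 columns were taken to share 1 direction. For array 1 this is an assumption, since its correlations with the others were weak, and turning array 1 alone was not tried. Spot-specific dye bias could also correlate positively in this way, and its part in the values below was not tested.

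By their means, the A and B forms stood on opposite sides of the array median, and in opposite order for P1 and for P2. RPP2A lay 7.31-fold above the median and RPP1B 2.92-fold above it, while RPP2B lay 3.51-fold below and RPP1A 1.49-fold below. The genes on the high side code for the P1B and P2A proteins of one preferred dimer. Those on the low side code for the P1A and P2B proteins of the other. The genes were chosen with these values known, so nothing about the dimers is read from these sides. The sides of the P1 genes depended on the reference. Centred within blocks of probes, RPP1B had a mean of 0.20 ± 0.82 (log2, SD, n = 3) and RPP1A -0.65. Against neighbouring probes RPP1A had 0.13 ± 1.17 (log2, SD, n = 4), raised by array 1, and RPP1B 1.12. RPP2A and RPP2B kept their sides by both references. RPP0, the gene of the anchor, had no ratio at either of its 2 probes on any array, so that 4 of the 5 genes had values. The sources used here do not give the rule by which spots lack a ratio, and the absence says nothing about Mex67 binding.

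RPP2A, the A form of P2, had centred log2 ratios of 2.62 on array 2, 3.28 on array 3 and 2.70 on array 4, and no ratio on array 1. The mean was 2.87 ± 0.36 (SD, n = 3), the highest of the 4 genes and rank 13 from the top among the 596 features. It exceeded 95.1%, 98.3% and 95.9% of the tested features on arrays 2, 3 and 4. Among the ribosomal protein genes it was rank 5 of 42, rank 4 of 42 and rank 5 of 41 on these arrays. Its 2 spots had centred log2 ratios of 2.18 and 3.06 on array 2, 2.83 and 3.73 on array 3 and 2.67 and 2.74 on array 4. All 6 spots were thus far above the median, and on arrays 2 and 3 the second probe was the higher by 0.88 and 0.90.

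RPP2B, the B form of P2, had centred log2 ratios of -1.90, -1.88 and -1.65 on arrays 2, 3 and 4, and none on array 1. The mean was -1.81 ± 0.14 (SD, n = 3), the narrowest spread of the 4 genes, and only 9.43%, 12.2% and 14.6% of the tested features lay lower on these arrays. Among the ribosomal protein genes RPP2B was rank 40 of 42, 38 of 42 and 38 of 41. The value rests on fewer spots than that of RPP2A. On array 2 both spots had ratios, at -1.49 and -2.32, while on arrays 3 and 4 the second probe alone did, at -1.88 and -1.65. The narrow spread depended on this mix of probes. By its second probe alone RPP2B had a mean of -1.95 ± 0.34 (log2, SD, n = 3), a spread like that of the first probe of RPP2A alone (2.56 ± 0.34, log2, SD, n = 3).

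RPP1B, the B form of P1, had centred log2 ratios of 1.06 on array 2, 0.88 on array 3 and 2.69 on array 4, and none on array 1. All 3 lay above the median, with array 4 far above the others, so that the mean of 1.54 ± 0.99 (SD, n = 3) had the widest spread of the 4 genes and was 0.97 without array 4. It exceeded 76.4% and 70.0% of the tested features on arrays 2 and 3 and 95.7% on array 4. The spots stood at 1.27 and 0.86 on array 2, at 0.68 and 1.09 on array 3 and at 2.08 and 3.30 on array 4. The gap of 1.22 between the spots on array 4 compares with a median gap of 0.34 and a 90th percentile of 1.25 over 319 genes with both spots measured there.

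RPP1A, the A form of P1, was the one P protein gene with a ratio on all 4 arrays. Its centred log2 ratios on arrays 1 to 4 were 0.26, -0.94, -0.74 and -0.90. Array 1 stood above the median and the other arrays below it, for a mean of -0.58 ± 0.57 (SD, n = 4), or -0.86 without array 1. The median of array 1 came from 110 features, against 576 to 594 on the other arrays. Centred on all probes with a ratio instead, RPP1A had a mean of -0.16 ± 1.15 (log2, SD, n = 4). The spots of RPP1A repeated closely, with gaps of 0.09, 0.14, 0.16 and 0.01 on arrays 1 to 4. It lay above 29.5%, 33.9% and 29.4% of the tested features on arrays 2, 3 and 4, nearer to the middle than the other P protein genes.

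**Figure D1:**
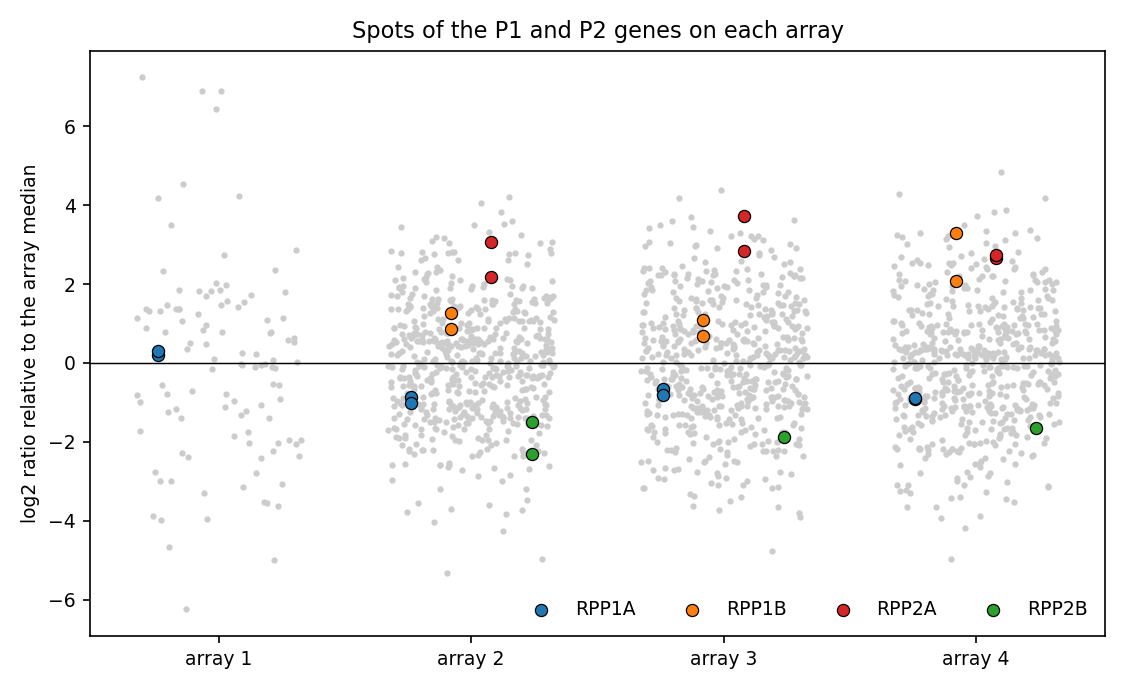
Log2 ratios relative to the array median for each spot of RPP1A, RPP1B, RPP2A and RPP2B (coloured points) on arrays 1 to 4, over the tested features (grey points, 110 on array 1 and 576 to 594 on the others). On arrays 2 to 4 every spot of RPP2A and RPP1B lies above 0 and every spot of RPP2B and RPP1A below it.

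RPP2A and RPP1B lay above the median on every array with a ratio, as did 34.2% of the 596 features. RPP2B lay below it on every array with a ratio, as did 34.6% of the features. As the genes were chosen on these values, nothing is read from the counts. In order of level, RPP2A exceeded RPP1B by 1.33 ± 1.21 (log2, SD, n = 3), a gap of 1.56 on array 2, 2.40 on array 3 and 0.02 on array 4. RPP2A was the higher on each array, on array 4 by very little, and the mean difference was about as large as its SD. RPP1A exceeded RPP2B by 0.95 ± 0.20 (log2, SD, n = 3), at 0.97, 1.14 and 0.74 on arrays 2, 3 and 4. The centred values of the 2 genes did not overlap on these arrays. Their order depended on the reference. Against medians of blocks of probes, own probes left out, RPP1A had -0.94, -0.77 and -0.61 on these arrays and RPP2B -0.41, -0.92 and -0.46. Against neighbouring probes RPP1A was the higher on arrays 2 and 3 but the lower on array 4, at -0.51 against -0.18.

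Differences between genes of 1 array do not depend on the single median removed from that array. RPP2A exceeded RPP2B by 4.53 on array 2, 5.16 on array 3 and 4.35 on array 4 on the log2 scale. The mean difference was 4.68 ± 0.43 (SD, n = 3), or 25.6-fold, and the lowest spot of RPP2A, at 2.18, was well above the highest spot of RPP2B, at -1.49. With single probes set against each other the mean ranged from 3.67, for the first probes of both genes (array 2 only), to 5.13 for the second probes. For P1 the B form was the higher: RPP1A minus RPP1B was -2.001, -1.62 and -3.59 on arrays 2, 3 and 4. The mean was -2.40 ± 1.04 (log2, SD, n = 3), or 5.29-fold, and again the spots did not overlap on these arrays, since the highest spot of RPP1A stood at -0.66 and the lowest of RPP1B at 0.68. Across the forms, RPP1A minus RPP2A was -3.56, -4.02 and -3.61 on arrays 2, 3 and 4, and RPP1B exceeded RPP2B by 2.97, 2.76 and 4.33. The smallest difference between a gene of the high side and one of the low side on these arrays was that of RPP1A and RPP1B on array 3. If arrays 3 and 4 were turned against arrays 1 and 2, the mean difference would be -1.66 for P2 and 1.07 for P1, and the arrays would contradict each other.

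Most ribosomal proteins of yeast are coded by paired A and B genes, which allows the P protein pairs to be set beside others. The comparison covers 13 of the pairs with both genes tested, P1 and P2 included. The P2 pair had the largest absolute mean difference of the 13 with ratios centred on the array median. With ratios centred within blocks of consecutive probes instead, the RPL12 pair exceeded it, at 2.83 against 2.28. The P1 pair fell from 2.40 to 0.94 with that change. With each gene's own probes left out of its block median the P2 pair had 2.88. The RPL12 pair was not measured that way, so the order of these 2 pairs within blocks is not settled. The 11 other pairs compared had absolute mean log2 differences from 0.27 to 2.79, with a median of 1.11, and 7 of them exceeded 1. For the large subunit pair RPL8, the A minus B difference was -4.28, -3.89 and -4.06 on arrays 2, 3 and 4 but 1.05 on array 1, with a mean of -2.79 ± 2.57 (log2, SD, n = 4). The P2 pair had no value on array 1, so the 2 means rest on unlike sets of arrays. Without array 1 the absolute mean of RPL8 was 4.08, closer to the 4.68 of P2. RPL12A minus RPL12B, both coding for a protein of the stalk's base, was -3.04, -1.29 and -2.01 on arrays 2, 3 and 4 (mean -2.11 ± 0.88, log2, SD, n = 3). RPL2A, of the large subunit, exceeded RPL2B by 3.09 on array 2 and 0.31 on array 3, the arrays that measured both, so that this difference varied widely.

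**Figure D2:**
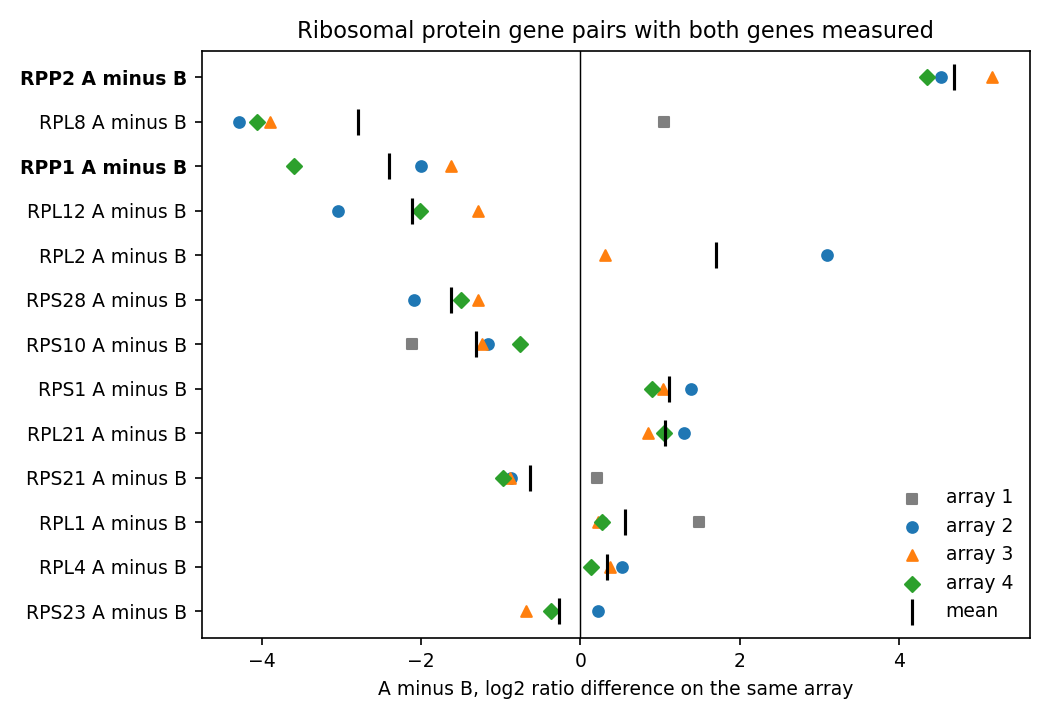
A minus B difference of log2 ratios on each array (symbols) and its mean (bars) for the 13 ribosomal protein gene pairs compared, in order of absolute mean. The P2 pair lies at 4.35 to 5.16 and the P1 pair at -3.59 to -1.62.

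In 6 of the 11 other pairs the 2 genes had means on opposite sides of the median, but in 2 of the 11, RPS28 and RPS1, they did so on every array where both were measured. Both P protein pairs did so too, but their genes were chosen with these values known, so nothing is read from the comparison. For P1 the split also depended on the centring. Against medians of blocks of probes, own probes left out, RPP1A and RPP1B both lay on the low side on array 3, at -0.77 and -0.68. On arrays 2 and 4 they stayed on opposite sides. The A form was the higher by its mean in 5 of the 11 other pairs, so that neither letter was generally the higher. Transcripts of similar sequence can hybridise to each other's spots, and how far the A and B forms of P1 or P2 did so was not tested, since no probe sequences were used here.

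The P protein genes lay in different stretches of consecutive probes, and the ratios of their neighbouring probes differed between these stretches. Within 100 places of RPP2B, the other probes with a ratio had median centred log2 ratios of -1.34 (15 probes), -1.10 (4) and -1.47 (5) on arrays 2, 3 and 4, on the same side as RPP2B itself. RPP2B minus these medians was -0.57, -0.78 and -0.18. Around RPP2A the medians were -0.51 (18 probes), 0.54 (3) and 0.33 (5), and RPP2A was higher than every other probe with a ratio in its stretch, by 3.13, 2.74 and 2.37 over the median. Measured against the stretch, RPP2A thus kept a mean of 2.75 ± 0.38 (log2, SD, n = 3), whereas RPP2B had -0.51 ± 0.31 (log2, SD, n = 3). These few neighbours were not close by. For RPP2A they lay 90 to 92 places from its first probe on array 3 and 81 to 101 on array 4. For RPP2B they lay at places -82, 88, 89 and 93 on array 3, and at these and -42 on array 4. Whether probe number follows position on the array was not tested.

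For P1 the surroundings were better filled. Around RPP1B 43 to 55 other probes had ratios on arrays 2 to 4, with medians of 0.19, 0.64 and 0.45, and RPP1B exceeded these by 0.88, 0.24 and 2.23. Around RPP1A 35 to 53 other probes had ratios on arrays 2 to 4, with medians of -0.74, -0.09 and -0.39, and RPP1A minus these was -0.20, -0.65 and -0.51. On array 1 the median around RPP1A was -1.61 (37 probes) and RPP1A exceeded it by 1.87. With that array included the mean of RPP1A against its stretch was 0.13 ± 1.17 (log2, SD, n = 4), and thus on the other side of 0. Taken against these stretches, RPP2A minus RPP2B was 3.70, 3.52 and 2.55 and RPP1A minus RPP1B -1.07, -0.89 and -2.75 on arrays 2, 3 and 4. Both orders were the same on each of these arrays.

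With ratios centred instead within fixed blocks of 400 consecutive probes, RPP2A minus RPP2B had a mean of 2.28 ± 0.61 (log2, SD, n = 3). The block of RPP2A held only 14, 9 and 9 other probes with a ratio on arrays 2, 3 and 4, and with each gene's own probes left out of its block median the mean was 2.88. RPP1A minus RPP1B had -0.94 ± 0.78 (log2, SD, n = 3). The means of the genes were then 1.71 for RPP2A, 0.20 for RPP1B, -0.57 for RPP2B and -0.65 for RPP1A. The largest loss was thus that of RPP1B, which came to lie near 0, and the spread of its values (SD 0.82, n = 3) exceeded its mean.

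**Figure D3:**
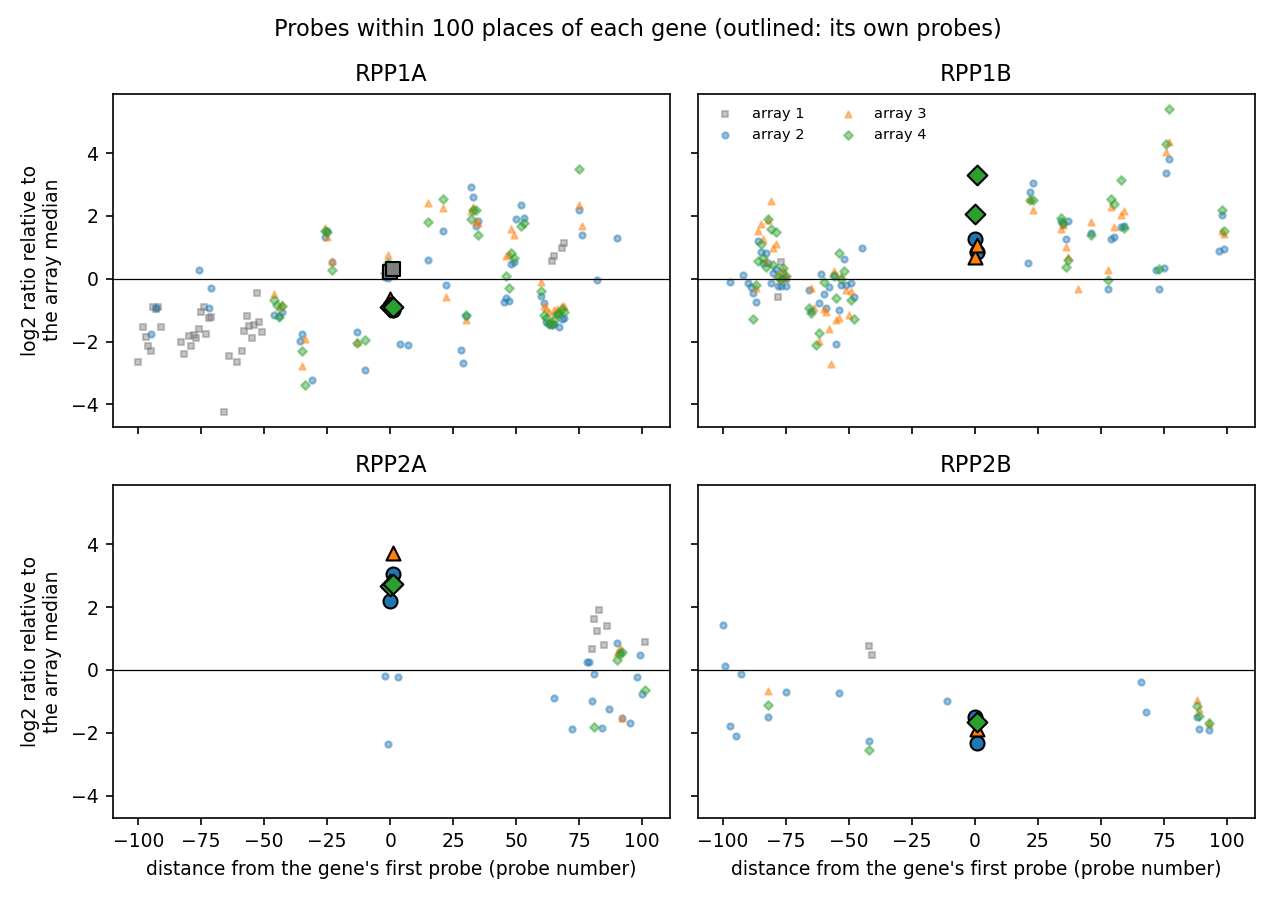
Log2 ratios relative to the array median for the probes within 100 places of RPP1A, RPP1B, RPP2A and RPP2B, by distance in probe number from the gene's first probe. Outlined symbols are the gene's own spots: those of RPP2A lie above all their neighbours with a ratio, while the neighbours of RPP2B have medians of -1.34, -1.10 and -1.47 on arrays 2, 3 and 4.

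A list of 34 other genes covered the stalk's base and neighbours in the ribosome, its assembly, and factors of elongation, initiation and termination. It also held kinases and sensors of the stalk. Of the 34 genes, 8 were tested. Of these, 2 passed above the median and 0 passed below it, by limma's moderated test at a Benjamini-Hochberg adjusted p under 0.05 over all 596 features, and the other 6 did not pass. That threshold was passed by 46.1% of all features, 21.3% above the median and 24.8% below. The median of the 8 means was 0.54. Over all features it was -0.004, which lies near 0 because each array was centred on the median of these features. A further 17 of the 34 genes had no ratio on any array, among them EFT1 and EFT2, for the elongation factor eEF2, and YEF3, for the fungal factor eEF3. The remaining 9 had a ratio on 1 array only.

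At the base of the stalk, RPL40A, which codes for ubiquitin fused to a ribosomal protein near the GTPase centre, had centred log2 ratios of 2.36, 1.44, 2.73 and 2.54 on arrays 1 to 4. All lay above the median, with a mean of 2.27 ± 0.57 (SD, n = 4; limma, adjusted p = 0.00374). RPL12B, whose protein sits beside P0, had -3.06 on array 1 and 1.95, 1.68 and 1.35 on arrays 2, 3 and 4. Array 1 was far below the others and the gene did not pass (mean 0.48 ± 2.37, SD, n = 4; limma, adjusted p = 0.671), while without array 1 it had a mean of 1.66 and passed (limma, adjusted p = 0.00261). RPL12A had -1.09, 0.39 and -0.66 on arrays 2, 3 and 4, on both sides of the median, and did not pass (mean -0.45 ± 0.76, SD, n = 3; limma, adjusted p = 0.347). MRT4, the P0-like protein that holds the place of P0 in the immature large subunit, had 1.32, 0.67 and 0.09 on arrays 2, 3 and 4. All were on the high side, and it did not pass (mean 0.69 ± 0.62, SD, n = 3; limma, adjusted p = 0.140).

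**Figure D4:**
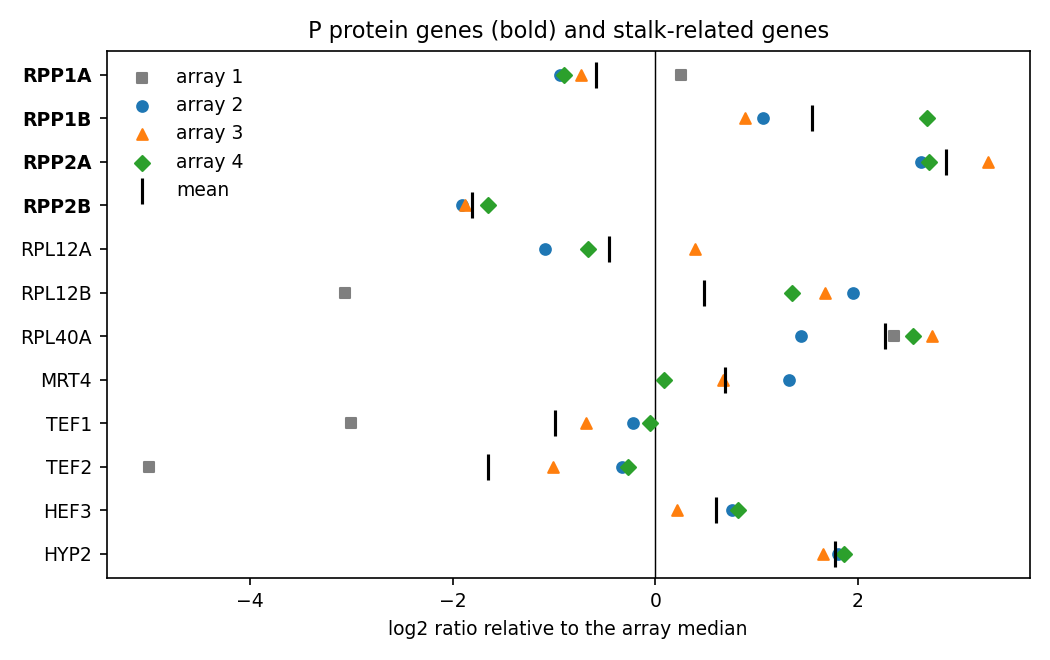
Log2 ratios relative to the array median on each array (symbols) and their mean (bars) for the P protein genes (bold) and the 8 tested stalk-related genes. RPP2A, RPL40A and HYP2 lie highest by their means, and RPL12B, TEF1 and TEF2 have array 1 at -5.00 to -3.00, far from the other arrays.

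Among the factors, HYP2, for the elongation factor eIF5A, lay above the median at 1.80, 1.65 and 1.86 on arrays 2, 3 and 4 (mean 1.77 ± 0.11, SD, n = 3; limma, adjusted p = 0.00540). Centred within blocks of probes it had a mean of 0.42 and did not pass (limma, adjusted p = 0.264). HEF3, a second gene for eEF3, had 0.76, 0.21 and 0.82 on these arrays and did not pass (mean 0.60 ± 0.33, SD, n = 3; limma, adjusted p = 0.116). Centred within blocks it had a mean of 1.84 and passed (limma, adjusted p = 0.0133). TEF1 and TEF2 code for the same protein, eEF1A, which the stalk helps to bring to the ribosome with aminoacyl-tRNA, and signal from one may reach the other's probes. TEF1 had a mean of -0.99 ± 1.37 (SD, n = 4; limma, adjusted p = 0.173). TEF2 had -1.65 ± 2.26 (SD, n = 4; limma, adjusted p = 0.157). Neither passed, and without array 1 the means were -0.32 and -0.54. None of the 7 kinases and sensors, which include the subunits of casein kinase 2 that phosphorylates the P proteins, was tested.

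The named genes with the most similar ratios were found by the root mean square difference of centred log2 ratios over the arrays on which each P protein gene was measured. For RPP2A they were MOR1 (0.29), SSA2 (0.29), an Hsp70 chaperone gene, and RPS27B (0.32), of the small ribosomal subunit, out of 470 genes over 3 arrays. For RPP2B they were KHA1 (0.11), a putative potassium and proton antiporter, MDH1 (0.14), the mitochondrial malate dehydrogenase, and RKI1 (0.18), an isomerase of the pentose phosphate pathway. The probes of KHA1 lay 91 places from those of RPP2B, within the stretch of low ratios described above. The ratios of KHA1 are among those from which the medians of that stretch were taken, so they are no separate evidence about it. The nearest genes of RPP1B were less close: NEW1 (0.45), an ATPase of translation, ENO1 (0.64), an enolase, and KRE5 (0.69), of cell wall glucan synthesis. Of these ENO1 lay 97 places from RPP1B, also within its stretch and among the probes that gave its medians. For RPP1A, among the 72 candidates with all 4 arrays, they were AIP5 (0.12), an actin-interacting protein, HIS3 (0.18), of histidine synthesis, and MSF1 (0.31), the mitochondrial phenylalanyl-tRNA synthetase.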

How the data were processed

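RNA bound to zzMex67 was compared with total RNA on 4 two-colour arrays. The authors deposited 1 log10 ratio per probe and array. The sources used here name no background correction, normalization or rule for missing ratios. The base of 10 was read from the values: 583 of 845 on array 1 and 496 of 2467 on array 2 were log10 of a ratio of whole numbers (denominators up to 400) within 1e-09. On arrays 3 and 4 only 7 of 973 and 33 of 1112 were, and the same base was assumed there. Direction is likely but unstated, and centring was absent, since the deposited log10 medians were -0.960, 0.462, -1.12 and -0.519. Spot intensities were not used here. The number of arrays limits the precision.

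Probe names came from the GEO annotation of the platform, checked by Entrez identifier against RefSeq's gene table (assembly R64): 11138 of 12800 probes had 1 symbol, 0 several and 1662 none here, and 11128 identifiers matched. A gene's probes were averaged per array. Features with a ratio on at least 3 arrays were tested with limma 3.58.1 (R 4.3.3; statmod 1.5.0 for the random block), tested on simulated data first. Python 3.11.15 served for the rest. The P protein genes, the stalk-related list, the tests and the block alternative were chosen with earlier results of these data known. The genes named were the P protein genes, every tested gene of the stalk-related list, the 3 other ribosomal pairs with the largest differences and the 3 nearest genes of each P protein gene; the RPS28 and RPS1 pairs were named after their values were seen. Of the ribosomal protein pairs, 1 is not reported here and was left out of the pair counts and of the order of pairs. Arrays are numbered in accession order, which pairs nothing. Alternatives covered centring, scaling, missing values, channel turning, single probes, the title code as a random block and each array left out.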

Additional observations from a re-analysis of the deposited data

Results flagged for a closer look

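Of 6 series of 4 array values that were checked, 4 had array 1 far from the other arrays, by a gap to the nearest of them of over 0.829 of the whole range. For independent values, chance gives about 1 series in 20 with such a gap at any array, not at array 1 in particular. The 6 series share their arrays and are not independent, so the count of 4 is not set against that rate. RPP1A stood at a centred log2 ratio of 0.26 on array 1 and below the median elsewhere. RPL12B stood at -3.06 and TEF2 at -5.00 on array 1. RPL8A minus RPL8B was 1.05 on array 1 and -4.28 to -3.89 elsewhere. RPP1B, RPP2A and RPP2B had no ratio on array 1.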

How the results depend on the processing

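RPP2A minus RPP2B, 4.68 on the log2 scale, was 2.28 centred within blocks of probes, and, in alternatives chosen after seeing the data, 2.88 with each gene's own probes left out of its block median and 3.26 against neighbouring probes. It was 3.67 for the first probes of both genes, 5.13 for the second probes and 4.44 to 4.84 with 1 array left out. RPP1A minus RPP1B, -2.40, was -0.94 centred within blocks, -0.94 with own probes left out and -2.80 to -1.81 with 1 array left out. With arrays 3 and 4 turned the differences were -1.66 and 1.07, and the means of RPP1A, RPP1B, RPP2A and RPP2B were 0.24, -0.83, -1.12 and 0.54. Against neighbouring probes RPP1A had 0.13, and centred on all probes with a ratio it had -0.16. Across all features 275 passed in limma; 0 did without centring (52 at an unadjusted p under 0.05), 0 with arrays 3 and 4 turned (1 at an unadjusted p under 0.05), 16 of the 80 with a ratio on all 4 arrays, and 155 to 342 with 1 array left out, 155 without array 4 and 178 without array 3. A random block for the title code left 263 past the threshold. Other constants removed per array, or leaving out array 1, cannot change the differences between P protein genes. No paired analysis was possible because the arrays form 1 group.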
